A study of Mus musculus with 8 samples.

Results

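The CC chemokines made by macrophages are described here as 10 genes, Ccl2, Ccl3, Ccl4, Ccl5, Ccl6, Ccl7, Ccl8, Ccl9, Ccl11 and Ccl12, taken by symbol out of 44422 genes in a table of RNA levels from mouse fat. These 10 were selected on their FPKM values in these same libraries, by tissue and genotype, with no threshold recorded, so their levels and differences are given as a description. Calls among them are counted only beside those over all genes, and nothing is read from the counts. The tissues were brown fat (BAT), which burns fuel for heat, and inguinal white fat (iWAT), a white depot that can take on brown features. All mice were C57BL/6 males, 10 weeks old, kept at 22 °C and carrying floxed alleles of the linker histone gene H1.2. In H1.2AKO mice a Cre recombinase driven by the adiponectin promoter, active in mature adipocytes, deleted H1.2. Their WT littermates were floxed with no Cre. Each tissue and genotype had 2 libraries, each from a pool of mice, 8 in all. Cells other than adipocytes, macrophages among them, kept the gene, and RNA came from whole tissue.

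Chemokines are small secreted proteins that bind to G protein-coupled receptors and draw leukocytes along a gradient. CC chemokines have their first pair of cysteines side by side. Macrophages are a main source of the members named here, although fibroblasts, adipocytes and lymphocytes also make some of them. In fat, Ccl2 and its receptor Ccr2 are best known for bringing monocytes into the obese depot. Ccl6 and Ccl9 occur in rodents, and Ccl12 is a mouse relative of Ccl2.

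The libraries held 16118634 to 17480325 reads over the listed genes, and the levels are FPKM, read fragments scaled to gene length and library size, so they can be set side by side between genes. The deleted gene, listed as Hist1h1c, had 0.177 and 1.97 FPKM in the BAT H1.2AKO libraries, against 36.8 and 43.3 FPKM in BAT WT. In iWAT it had 2.26 and 1.73 FPKM in H1.2AKO, against 23.7 and 24.2 FPKM in WT. Limma's adjusted p for it was 0.0717 in BAT and 0.366 in iWAT, so the deleted gene itself missed the threshold of 0.05. Of the brown adipocyte markers Ucp1, Cidea, Cox8b, Ppara and Dio2, all 5 were called higher in BAT, as the tissue labels have it. Skeletal muscle RNA differed between libraries of the same group. The sum of 10 muscle genes was 89.1 and 1431 FPKM in BAT H1.2AKO, against 2705 and 3078 FPKM in BAT WT, and 2759 and 2621 FPKM in iWAT H1.2AKO, against 158 and 4010 FPKM in iWAT WT. The libraries low in muscle RNA were BAT H1.2AKO replicate 1 and iWAT WT replicate 1. Values without them are given for some of the members and lists that they moved.

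All 10 genes lie on mouse chromosome 11 (mm10, GRCm38.p6) in 2 clusters of 5. The first cluster spans 81.2 kb (chr11:82035571-82116799) and holds Ccl2, Ccl7, Ccl11, Ccl12 and Ccl8, all on the + strand. The second spans 139 kb (chr11:83525778-83664683) and holds Ccl5, Ccl9, Ccl6 and Ccl3 on the - strand and Ccl4 on the + strand. Between the clusters lie 1409 kb. Neighbours can be close: 8258 bases separate Ccl2 from Ccl7, and 9245 bases separate Ccl9 from Ccl6. The table's gene spans match GENCODE vM21. Ccl2 overlaps Gm17268 on the - strand and Ccl6 overlaps E230016K23Rik on the + strand, and since it is not stated whether counting used strand, reads of these pairs may not be told apart. Of the 50-base words in each gene's exons, 0% occurred in exons of another gene for 9 members. For Ccl9 it was 1.97% (59 of 2996), and none of these were shared with another member, so members do not share 50-base words with one another.

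Promoters from RefSeq (GRCm38.p6) were at hand for 5 of the 10 members. Those of Ccl8, Ccl6 and Ccl9 are printed because these 3 had non-overlapping lower levels in iWAT H1.2AKO than in iWAT WT, described below; each is the 250 bases before the start site, 5′ to 3′ on the gene's strand, with matches to the searched motifs in capitals.
Ccl8 (chr11:82114935-82115184, + strand): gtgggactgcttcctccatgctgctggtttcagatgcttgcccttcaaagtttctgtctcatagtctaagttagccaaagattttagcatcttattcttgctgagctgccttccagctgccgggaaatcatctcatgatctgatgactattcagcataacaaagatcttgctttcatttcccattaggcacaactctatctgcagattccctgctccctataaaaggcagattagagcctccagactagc
Ccl6 (chr11:83593088-83593337, - strand): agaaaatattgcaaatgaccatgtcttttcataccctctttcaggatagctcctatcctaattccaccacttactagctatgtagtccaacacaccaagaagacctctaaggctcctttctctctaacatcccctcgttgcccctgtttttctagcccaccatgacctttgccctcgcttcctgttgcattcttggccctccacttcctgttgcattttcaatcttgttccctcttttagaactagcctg
Ccl9 (chr11:83578637-83578886, - strand): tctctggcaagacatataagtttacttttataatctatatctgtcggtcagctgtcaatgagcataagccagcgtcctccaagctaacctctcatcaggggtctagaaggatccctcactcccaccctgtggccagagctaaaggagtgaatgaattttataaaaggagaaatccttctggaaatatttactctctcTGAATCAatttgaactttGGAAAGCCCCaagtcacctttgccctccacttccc
The motifs, searched on both strands, were AP-1 (TGANTCA), the interferon-stimulated response element (by its name), the STAT site (TTCNNNGAA) and NF-kappaB (by its name). Only Ccl9 held any: TGAATCA from 53 to 47 bases and GGAAAGCCCC from 35 to 26 bases before the start, which match AP-1 and NF-kappaB and do not overlap each other. No match was found in these windows of Ccl8, Ccl6, Ccl12 or Ccl3. Over 32851 promoters of the same length, 6.75% held the AP-1 letters, 2.98% those of the interferon element, 7.02% the STAT letters and 7.25% the NF-kappaB letters. A match is a description of the letters and not a measured site.

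Ccl8 and Ccl6 had the highest levels in iWAT, and Ccl6, Ccl7 and Ccl11 stood first in BAT WT. Summed over the 10 genes it was 28.0 and 44.6 FPKM in BAT H1.2AKO, against 55.7 and 74.2 FPKM in BAT WT, and 215 and 227 FPKM in iWAT H1.2AKO, against 309 FPKM in both iWAT WT libraries. In each tissue the H1.2AKO sums were under the WT sums, without overlap. Most of the iWAT sum is Ccl8 and Ccl6, so it does not speak for each member. By log2 fold change, H1.2AKO over WT, 6 of the 10 were positive in iWAT (median 0.11) and 4 of the 10 in BAT (median -0.41). Ccl8 took 33.3% and 30.3% of that sum in iWAT H1.2AKO, against 40.6% and 42.6% in iWAT WT. Ccl6 took between 30.2% and 31.8% in all 4 iWAT libraries. In BAT, Ccl7 took 5.83% and 13.0% in H1.2AKO, against 24.5% and 23.6% in WT, and Ccl2 took 5.83% and 7.12%, against 18.2% and 12.8%. Thus the makeup, not only the sum, differed between the genotype groups in these libraries.

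**Figure D1:**
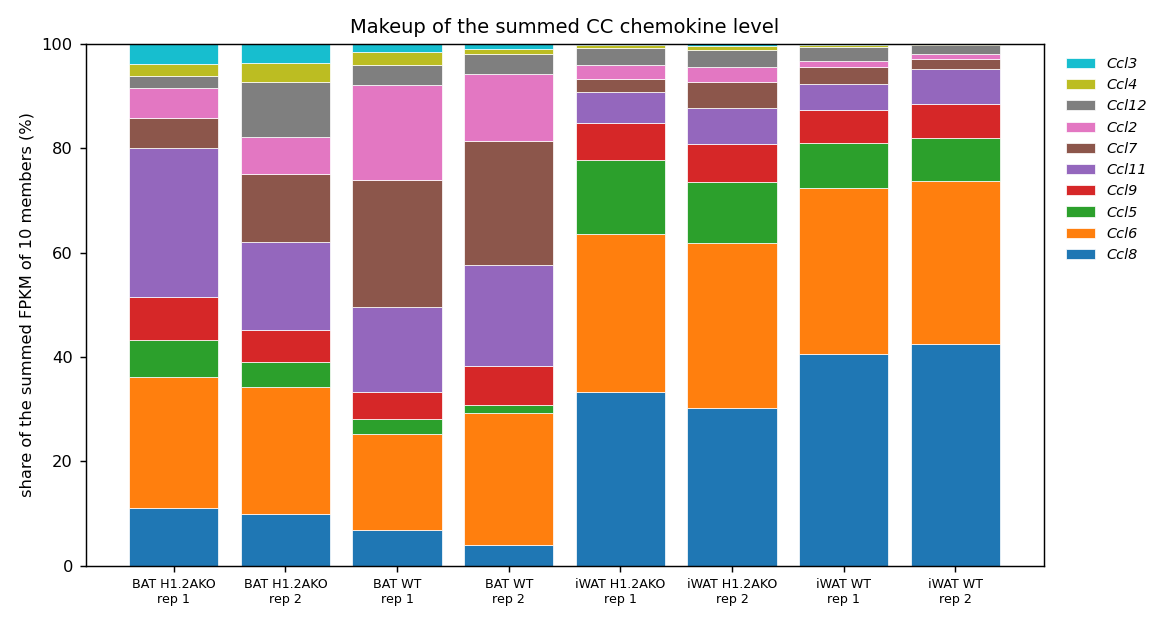
Share of the summed FPKM of the 10 members (vertical axis, %) taken by each gene in each library, BAT at left and iWAT at right. Ccl8 and Ccl6 make up most of each iWAT bar, while Ccl7 and Ccl2 take more of the BAT WT bars (24.5% and 23.6% for Ccl7) than of the BAT H1.2AKO bars (5.83% and 13.0%).

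The order of the mean levels differed between tissues, and in BAT also between the genotype groups. In iWAT WT it ran Ccl8, Ccl6, Ccl5, Ccl9, Ccl11, Ccl7, Ccl12, Ccl2, Ccl4 and Ccl3, and the libraries of the neighbours Ccl9 and Ccl11, Ccl7 and Ccl12, and Ccl4 and Ccl3 overlapped. In iWAT H1.2AKO the order of the 10 was the same, but Ccl8 (70.3 ± 2.12 FPKM, SD, n = 2) and Ccl6 (68.2 ± 4.45 FPKM) overlapped there. In BAT WT, Ccl7 (15.6 ± 2.77 FPKM), Ccl6 (14.5 ± 6.11 FPKM) and Ccl11 (11.7 ± 3.85 FPKM) came first, each overlapping the next, then Ccl2 (9.82 ± 0.424 FPKM). In BAT H1.2AKO the order began with Ccl6 (8.96 ± 2.75 FPKM) and Ccl11 (7.73 ± 0.322 FPKM), and from Ccl8 down to Ccl5 each member overlapped the next. Ccl3 and Ccl4 were the lowest in all 4 groups, where they rest on 4 to 21 reads per library.

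**Figure D2:**
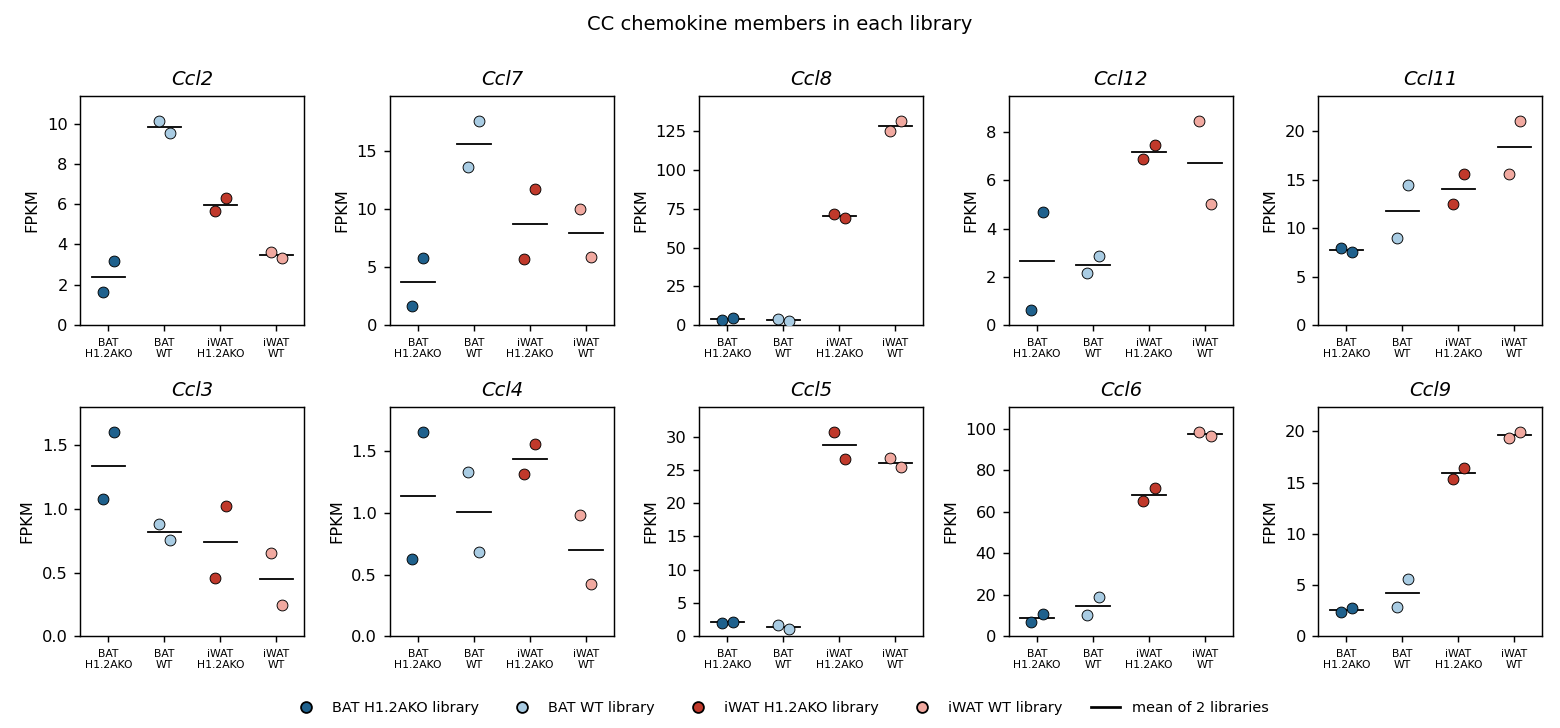
FPKM of each member (vertical axis, own scale from 0 in each panel) in the 2 libraries of each group (points), with the mean of 2 as a line. Ccl8 sits between 68.8 and 71.8 FPKM in iWAT H1.2AKO, under the 125 and 132 FPKM of iWAT WT, and Ccl2 sits at 1.63 and 3.18 FPKM in BAT H1.2AKO, under the 10.1 and 9.52 FPKM of BAT WT.

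Between BAT and iWAT, 5 members lay lower in every BAT library and the other 5 overlapped. Ccl8, which in the mouse acts through Ccr8, had a log2 fold change of -4.57 ± 0.12 (BAT over iWAT on the log2 scale of FPKM + 0.5, limma standard error), with 2.89 to 4.41 FPKM over the 4 BAT libraries, against 68.8 to 132 FPKM over the 4 iWAT libraries. Ccl5, a ligand of Ccr1 and Ccr3 that T and NK cells also make, followed at -3.68 ± 0.11, with 1.07 to 2.13 FPKM in BAT, against 25.4 to 30.7 FPKM in iWAT. Ccl6 had -2.83 ± 0.21 and Ccl9 -2.29 ± 0.18, both ligands of Ccr1. Ccl12 had -1.45 ± 0.46, with 0.641 to 4.70 FPKM in BAT, against 5.02 to 8.46 FPKM in iWAT. In these 5 every BAT library lay below every iWAT library, as did 32.8% of all genes, while 28.2% lay above. Ccl11, the eotaxin that draws eosinophils through Ccr3, had -0.73 ± 0.17, with 7.50 to 14.5 FPKM in BAT, against 12.5 to 21.1 FPKM in iWAT, and overlapped. By limma 6 of the 10 members were lower (these 5 and Ccl11) and 0 higher. Over all 14945 genes 35.4% were called lower and 30.8% higher, and since the members may have been picked for this contrast, nothing is read from their count. The 4 remaining members, Ccl2, Ccl3, Ccl4 and Ccl7, overlapped between tissues.

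Ccl2 and Ccl7 had differences between tissues of opposite sign by genotype. Ccl2, the main ligand of Ccr2, had a log2 difference, BAT minus iWAT, of -1.21 ± 0.24 in H1.2AKO and 1.38 ± 0.24 in WT. Ccl7, which also binds Ccr2, had -1.25 ± 0.56 in H1.2AKO and 0.97 ± 0.56 in WT, but in H1.2AKO its tissues overlapped, with 1.63 and 5.79 FPKM in BAT, against 5.70 and 11.7 FPKM in iWAT. Averaged over both genotypes the differences were 0.09 ± 0.17 for Ccl2 and -0.14 ± 0.40 for Ccl7, and these averages changed sign between settings. For the other 8 members both genotypes gave the same sign, except Ccl4 (-0.31 ± 0.39 in H1.2AKO and 0.33 ± 0.39 in WT).

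**Figure D3:**
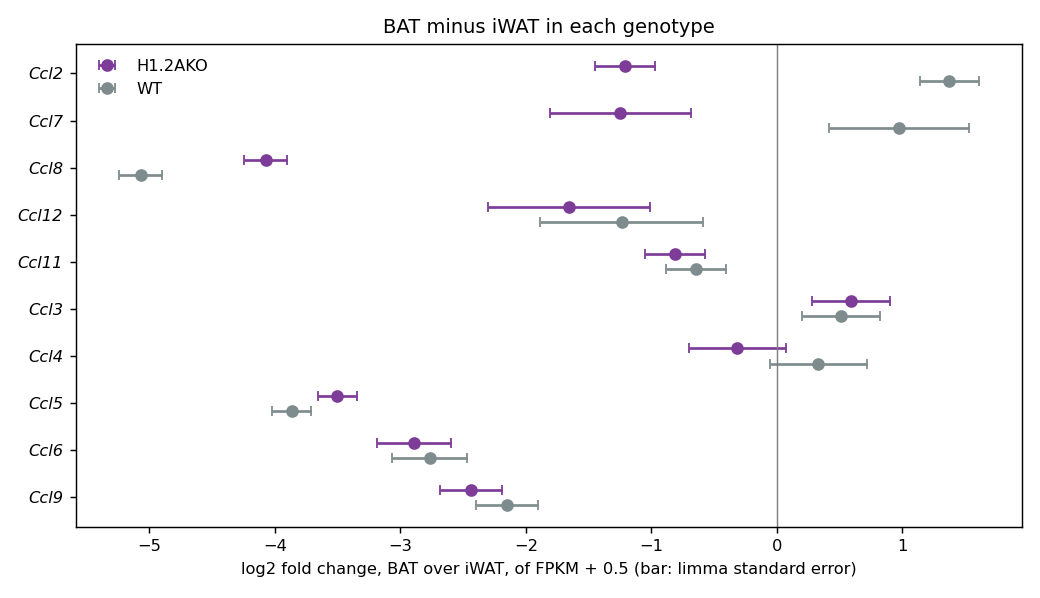
Log2 fold change of each member, BAT over iWAT, of FPKM + 0.5 (horizontal axis), for H1.2AKO and WT apart, with limma's standard error as a bar. Ccl8 is lowest, at -4.07 in H1.2AKO and -5.07 in WT, and Ccl2 (-1.21 and 1.38) and Ccl7 (-1.25 and 0.97) lie on opposite sides of 0.

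Cell type markers moved with the tissue. Of the 17 macrophage markers listed, 16 were measured (Adgre1 was not analysed here), none at 0 FPKM in any library, and 15 of the 16 were called lower in BAT by limma, with a median log2 fold change of -2.34, against -0.04 over all genes. Their sum was 230 and 264 FPKM in BAT H1.2AKO and 207 and 336 FPKM in BAT WT, against 1268 and 1226 FPKM in iWAT H1.2AKO and 1398 and 1504 FPKM in iWAT WT. The macrophage scavenger receptor Cd163 had -3.00 ± 0.12 (adjusted p = 4.42e-06 from limma, lower in each of 4 BAT libraries). Monocyte markers (5 of 7 called lower, median -2.28), T and NK cell markers (10 of 10, median -2.06) and lymph node markers (9 of 9, median -4.95) were also lower in BAT. Over all genes 35.4% were called lower. The minimum mean of 0.5 FPKM was reached in BAT by 14 of 16 macrophage, 5 of 7 monocyte, 6 of 10 T and NK cell and 3 of 9 lymph node markers. The rest were tested only through their iWAT level, which favours a lower call, so nothing is read from these counts. In bulk tissue, fewer cells of a type and less RNA per cell cannot be told apart, and the part of cell makeup in the members' tissue differences was not tested. Set against the macrophage sum, Ccl8 was 1.35 and 1.67 FPKM per 100 FPKM of macrophage markers in BAT H1.2AKO and 1.86 and 0.860 in BAT WT, against 5.66 and 5.61 in iWAT H1.2AKO and 8.97 and 8.75 in iWAT WT. On that scale Ccl8 was still lower in each BAT library than in each iWAT library. Ccl11 ran the other way, with 3.46 and 2.84 in BAT H1.2AKO and 4.35 and 4.31 in BAT WT, against 0.982 and 1.27 in iWAT H1.2AKO and 1.12 and 1.40 in iWAT WT. Ccl2 was also higher in each BAT library on that scale, with 0.710 to 4.88 over the BAT libraries, against 0.220 to 0.513 over the iWAT libraries. So were Ccl3 (0.224 to 0.606 in BAT, against 0.0161 to 0.0835 in iWAT) and Ccl4 (0.203 to 0.644, against 0.0281 to 0.127), both on few reads. Ccl5, like Ccl8, stayed lower in each BAT library (0.318 to 0.873, against 1.69 to 2.42). Ccl6, Ccl9 and Ccl12, lower in every BAT library by FPKM, overlapped between tissues on it, as did Ccl7. The macrophage sum was lower in every BAT library, so a gene of equal FPKM in both tissues lies higher in BAT on that scale. The share of all genes without overlap on it was not counted, so nothing is read from these differences.

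The receptors were lower in BAT as well. Of 14 receptors that bind CC chemokines, 10 were tested, 8 were called lower in BAT and 1 higher (Ccr10), with a median log2 fold change of -1.87, where 35.4% of all genes were called lower and 30.8% higher, with a median of -0.04. Only 7 of these receptors reached the minimum mean of 0.5 FPKM in BAT. The rest were tested only through their iWAT level, which favours a lower call, so nothing is read from the count. Ccr2, the monocyte receptor of Ccl2, Ccl7 and Ccl12, had 0.517 and 0.672 FPKM in BAT H1.2AKO and 0.445 and 0.732 FPKM in BAT WT, against 3.07 and 4.44 FPKM in iWAT H1.2AKO and 3.77 and 3.61 FPKM in iWAT WT. The difference was -1.95 ± 0.15 (adjusted p = 4.70e-05 from limma). Ccr1 had -2.03 ± 0.18 (adjusted p = 9.52e-05) and Ackr2, a decoy that takes up CC ligands without signalling, -2.06 ± 0.21 (adjusted p = 0.000160). Ccr3 had -0.85 ± 0.18, with 0.039 to 0.063 FPKM in BAT, against 0.305 to 0.749 FPKM in iWAT. It reached the minimum mean of 0.5 FPKM only in iWAT, so no p-value is given for it. All of these p-values are from limma over 14945 genes, with 4 libraries per tissue.

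**Figure D4:**
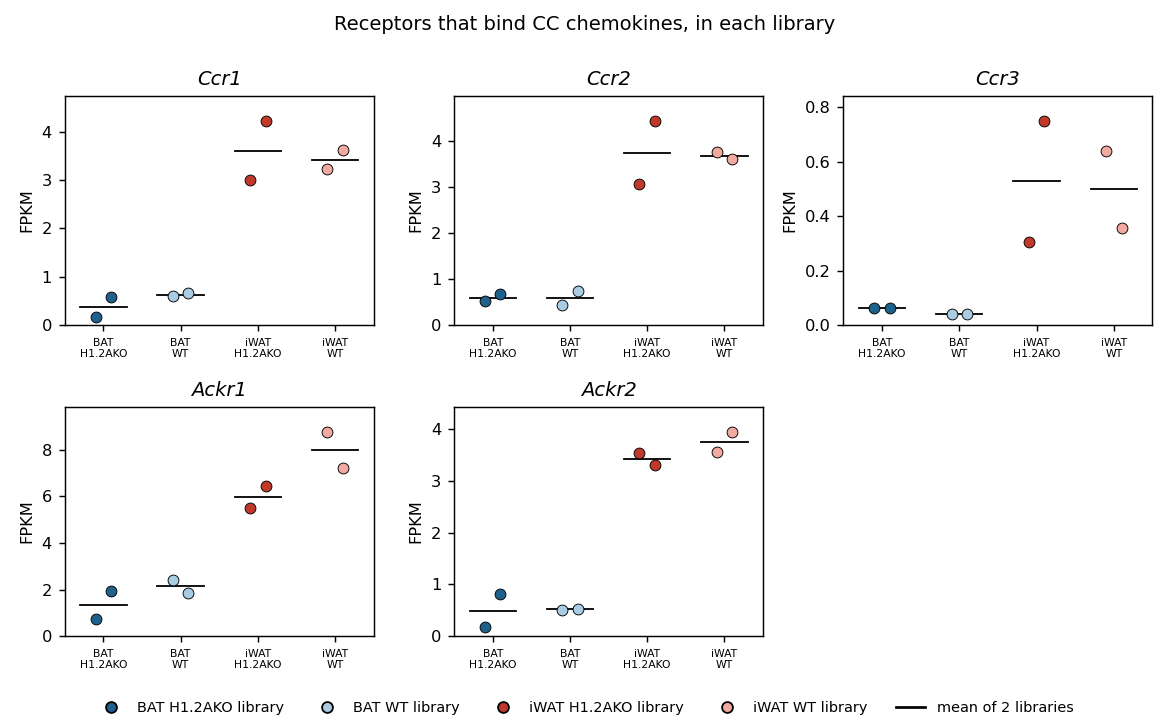
FPKM of 5 receptors of CC chemokines (vertical axis, own scale from 0 in each panel) in the 2 libraries of each group (points), with the mean of 2 as a line. Each of the 5 is lower in the 4 BAT libraries than in the 4 iWAT libraries, and for Ccr2 the H1.2AKO and WT points of a tissue overlap.

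Between genotypes in iWAT, Ccl8, Ccl6, Ccl9 and Ccl11 had lower levels in H1.2AKO and Ccl2 had higher ones, each without overlap. By limma 0 of the 10 members and 0 of 14349 genes (0.00%) passed an adjusted p of 0.05. At an unadjusted p under 0.05, 371 genes were higher and 484 lower, and limma-voom also called 0. With 2 libraries against 2, an exact permutation test cannot go below a two-sided p of 0.333. By levels alone, 4 members were lower without overlap (Ccl6, Ccl8, Ccl9 and Ccl11), where 20.5% of all genes were, and 2 were higher (Ccl2 and Ccl4), where 16.7% were. Nothing is read from these counts.

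Ccl8 had the lowest log2 fold change of the members in iWAT. Its levels were 71.8 and 68.8 FPKM in H1.2AKO (844 and 717 reads), against 125 and 132 FPKM in WT (1283 and 1447 reads). The means were 70.3 ± 2.12 FPKM and 128 ± 4.47 FPKM (SD, n = 2 each), a log2 fold change of -0.87 ± 0.17 (H1.2AKO over WT, limma standard error). Leaving out any 1 library, iWAT WT replicate 1 included, moved it only between -0.90 and -0.83. Ccl6 had 65.1 and 71.4 FPKM in H1.2AKO, against 98.2 and 96.5 FPKM in WT, a log2 fold change of -0.51 ± 0.30. Ccl9, its neighbour, had 15.4 and 16.4 FPKM in H1.2AKO, against 19.4 and 19.9 FPKM in WT (-0.30 ± 0.25). For Ccl6 and Ccl9 the replicates of a group lay close together in iWAT, and the wider standard errors come from a spread shared with BAT. Ccl11 had 12.5 and 15.6 FPKM in H1.2AKO, against 15.6 and 21.1 FPKM in WT (-0.37 ± 0.24), so the groups all but touched. Without iWAT WT replicate 1 the Ccl11 fold change was -0.58 on the log2 scale, and without iWAT WT replicate 2 it was -0.16.

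The Ccr2 ligands Ccl2, Ccl7 and Ccl12 gave unlike values in iWAT. Ccl2 had 5.65 and 6.29 FPKM in H1.2AKO (148 and 146 reads), against 3.64 and 3.31 FPKM in WT (83 and 81 reads), a log2 fold change of 0.70 ± 0.24. Ccl7 had 5.70 and 11.7 FPKM in H1.2AKO, against 9.97 and 5.80 FPKM in WT (0.10 ± 0.56). Ccl12 had 6.88 and 7.49 FPKM in H1.2AKO, against 8.46 and 5.02 FPKM in WT (0.13 ± 0.65). Both overlapped between genotypes, and both fold changes changed sign when 1 library was left out. Ccl5 had 30.7 and 26.7 FPKM in H1.2AKO, against 26.8 and 25.4 FPKM in WT (0.13 ± 0.15), which overlapped narrowly. Ccl4 had 1.32 and 1.56 FPKM in H1.2AKO, against 0.983 and 0.423 FPKM in WT (0.73 ± 0.39), from 20 and 21 reads against 13 and 6. The 95% Poisson intervals of these counts, which cover counting error only, were 12.2 to 30.9 and 13.0 to 32.1 reads in H1.2AKO, against 6.92 to 22.2 and 2.20 to 13.1 reads in WT. Ccl3 had 0.454 and 1.02 FPKM in H1.2AKO, against 0.652 and 0.243 FPKM in WT (0.38 ± 0.31), and overlapped. Without iWAT WT replicate 1 the log2 fold changes were 1.07 for Ccl4, 0.70 for Ccl3, 0.46 for Ccl7 and 0.48 for Ccl12, and without iWAT WT replicate 2 they were 0.38, 0.07, -0.27 and -0.22.

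Macrophage markers were a little lower in iWAT H1.2AKO too. All 16 had a negative log2 fold change, with a median of -0.22, against 0.00 over all genes. Of the 16, 11 lay lower without overlap, as did 20.5% of all genes, but 0 passed limma's adjusted threshold. Cd163 had -0.27 ± 0.16 (adjusted p = 0.931 from limma, lower in 2 of 2 libraries). Less the mean macrophage change of -0.20, the differences of the lower members were -0.66 for Ccl8, -0.31 for Ccl6, -0.17 for Ccl11 and -0.10 for Ccl9. Per 100 FPKM of macrophage markers, Ccl8 had 5.66 and 5.61 FPKM in H1.2AKO, against 8.97 and 8.75 FPKM in WT, and Ccl6 5.13 and 5.82 FPKM, against 7.03 and 6.42 FPKM. Ccl9 overlapped on that scale, with 1.21 and 1.34 FPKM in H1.2AKO, against 1.39 and 1.32 FPKM in WT. Monocyte markers summed to 96.9 and 128 FPKM in H1.2AKO, against 119 and 128 FPKM in WT (2 of 7 fold changes positive, median -0.19). Of these, 1 lay higher without overlap, Ly6c2 (0.67 ± 0.19, adjusted p = 0.628 from limma), and 2 lower, where 16.7% and 20.5% of all genes did. In iWAT H1.2AKO replicate 1, S100a8 and S100a9 had 2.99 and 3.08 FPKM, against 13.6 and 12.5 FPKM in replicate 2. T and NK cell markers summed to 135 and 127 FPKM in H1.2AKO, against 105 and 112 FPKM in WT (7 of 10 positive, median 0.14). Immediate early and heat shock genes, which can change with tissue handling, had a mean log2 level of 3.86 and 4.25 in H1.2AKO, against 3.95 and 2.84 in WT (11 of 12 positive, median 0.49). The library lowest in these genes was iWAT WT replicate 2. Leaving out any 1 library put the log2 fold change of Ccl2 between 0.63 and 0.77. The part of cell makeup or handling in the members' differences was not tested.

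**Figure D5:**
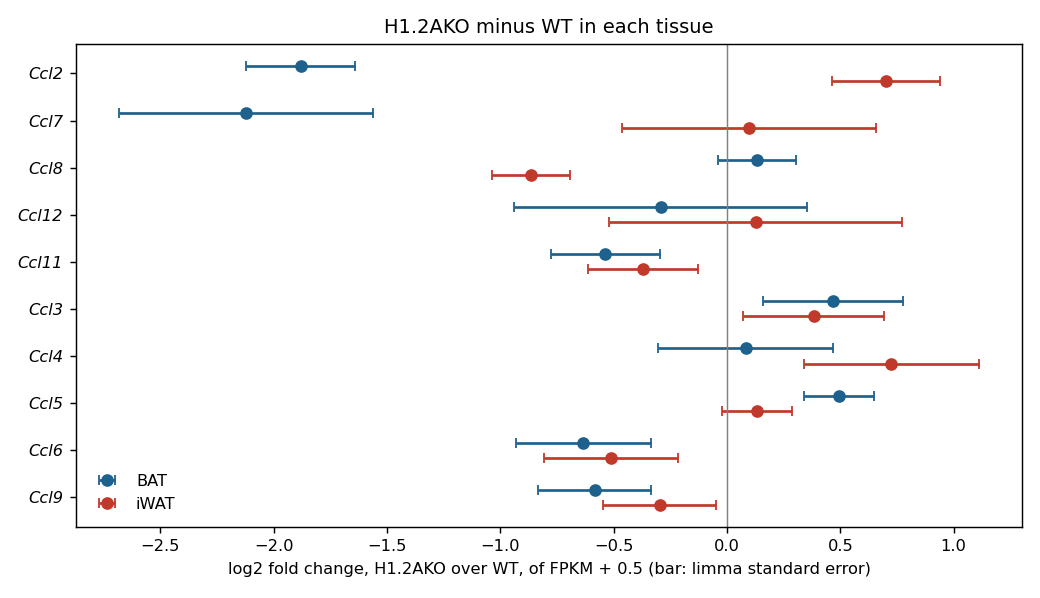
Log2 fold change of each member, H1.2AKO over WT, of FPKM + 0.5 (horizontal axis), in BAT and in iWAT, with limma's standard error as a bar. Ccl2 lies at -1.88 in BAT and 0.70 in iWAT, Ccl8 at 0.13 in BAT and -0.87 in iWAT, and Ccl6, Ccl9 and Ccl11 lie below 0 in both.

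In BAT Ccl2 and Ccl7, neighbours in the first cluster, had the lowest log2 fold changes of the members. By limma 0 of the 10 members and 0 of 13190 genes (0.00%) passed. At an unadjusted p under 0.05, 823 genes were higher and 831 lower. Limma-voom on recovered reads called 31 genes, 1 member (Ccl2) among them. By levels alone 4 members were lower without overlap (Ccl2, Ccl7, Ccl9 and Ccl11), where 18.9% of all genes were, and 2 were higher (Ccl3 and Ccl5), where 22.4% were. Nothing is read from these counts either.

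Ccl2 had 1.63 and 3.18 FPKM in BAT H1.2AKO (27 and 53 reads), against 10.1 and 9.52 FPKM in WT (170 and 169 reads). The means were 2.41 ± 1.09 FPKM and 9.82 ± 0.424 FPKM (SD, n = 2 each), a log2 fold change of -1.88 ± 0.24. Ccl7 had 1.63 and 5.79 FPKM in H1.2AKO (19 and 68 reads), against 13.6 and 17.5 FPKM in WT (161 and 219 reads), a log2 fold change of -2.12 ± 0.56. In both genes BAT H1.2AKO replicate 1, the library low in muscle RNA, was the lowest of all 8. Without it the log2 fold changes were -1.49 for Ccl2 and -1.34 for Ccl7, and the remaining H1.2AKO library still lay below both WT libraries.

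The other Ccr2 ligand, Ccl12, turned on that library. It had 0.641 and 4.70 FPKM in BAT H1.2AKO, against 2.15 and 2.87 FPKM in WT, so the H1.2AKO libraries lay on either side of the WT pair. The low value rests on 5 reads (95% Poisson interval 1.62 to 11.7). The log2 fold change was -0.29 ± 0.65 over all libraries, 0.80 without BAT H1.2AKO replicate 1 and -1.39 without BAT H1.2AKO replicate 2. Ccl8, at 3.10 and 4.41 FPKM in H1.2AKO, against 3.85 and 2.89 FPKM in WT (0.13 ± 0.17), overlapped, on 23 to 33 reads.

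Among the Ccr1 and Ccr3 ligands, Ccl6 had 7.02 and 10.9 FPKM in BAT H1.2AKO, against 10.2 and 18.8 FPKM in WT (-0.63 ± 0.30), and overlapped. Ccl9 had 2.33 and 2.73 FPKM in H1.2AKO, against 2.89 and 5.56 FPKM in WT (-0.58 ± 0.25), and Ccl11 7.96 and 7.50 FPKM, against 9.02 and 14.5 FPKM (-0.54 ± 0.24). In all 3 BAT WT replicate 2 was the highest, and without it the log2 fold changes came to -0.21 for Ccl6, -0.17 for Ccl9 and -0.21 for Ccl11. That library also had the highest macrophage sum in BAT, 336 FPKM, against 207 FPKM in the other WT library. Per 100 FPKM of macrophage markers, all 3 were lower in BAT H1.2AKO without overlap. The macrophage sum of BAT WT replicate 1 lay below the 230 and 264 FPKM of BAT H1.2AKO, which lifts any gene in that WT library on this scale. How many of all genes lay lower without overlap on it was not counted, so nothing is read from it. Ccl6 had 3.05 and 4.12 FPKM on that scale, against 4.92 and 5.61 FPKM in WT. Ccl11 had 3.46 and 2.84 FPKM, against 4.35 and 4.31 FPKM. For Ccl9 the higher H1.2AKO value was 1.03 FPKM and the lower WT value 1.40 FPKM. The part of macrophage content in these differences was not tested. By FPKM, Ccl9 and Ccl11 were the members lower without overlap in both tissues, as were 5.80% of the 12594 genes tested in both.

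Ccl5 had 2.01 and 2.13 FPKM in BAT H1.2AKO (28 and 30 reads), against 1.62 and 1.07 FPKM in WT (23 and 16 reads), a log2 fold change of 0.49 ± 0.15. Without BAT WT replicate 2 it was 0.28, and without BAT WT replicate 1 it was 0.71. T and NK cell markers summed to 16.5 and 14.9 FPKM in BAT H1.2AKO, against 11.6 and 10.6 FPKM in WT, with 5 of 6 tested fold changes positive (median 0.20). Their part in the Ccl5 difference was not tested. Ccl3 had 1.08 and 1.60 FPKM in H1.2AKO, against 0.885 and 0.753 FPKM in WT (0.47 ± 0.31), from 12 and 18 reads against 10 and 9, and their 95% Poisson intervals overlapped. Ccl4 had 0.626 and 1.65 FPKM in H1.2AKO, against 1.33 and 0.680 FPKM in WT (0.08 ± 0.39).

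Macrophage markers in BAT had 14 of 14 tested fold changes below 0, with a median of -0.18, against 0.01 over all genes. Of these, 1 lay lower without overlap, where 18.9% of all genes did. Without BAT H1.2AKO replicate 1, 4 of the 14 were positive (median -0.12). The mean change of the whole list was -0.16, less which the log2 difference was -1.72 for Ccl2 and -1.96 for Ccl7. Monocyte markers had 2 of 5 positive (median -0.14), and 4 of 5 without BAT H1.2AKO replicate 1 (median 0.22). The mean log2 level of immediate early and heat shock genes was 3.60 and 5.04 in H1.2AKO, against 5.01 and 3.70 in WT, which overlapped (6 of 12 positive, median 0.00). Without BAT H1.2AKO replicate 1, 10 of the 12 were positive (median 0.76).

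The genotype difference of Ccl2 had opposite directions in the 2 tissues. Its log2 fold change by genotype in BAT minus that in iWAT was -2.58 ± 0.34, and its groups lay apart in opposite directions, as held in either order for 4.55% of the 12594 genes tested in both tissues. Ccl7 had -2.22 ± 0.79, which was -1.44 without BAT H1.2AKO replicate 1, and Ccl8 1.00 ± 0.24. For the remaining 7 members the difference lay between -0.64 (Ccl4) and 0.36 (Ccl5). By limma's interaction test 0 of 14945 genes (0.00%) and 0 members passed, with 415 higher and 424 lower at an unadjusted p under 0.05, and limma-voom also called 0.

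Between genotypes 0 receptors passed. In BAT, 7 were tested, with 3 positive and 4 negative fold changes (median -0.12), and 1 lay lower without overlap, where 18.9% of all genes did. Without BAT H1.2AKO replicate 1, 4 of the 7 were positive (median 0.12). In iWAT 10 were tested, with fold changes from -0.39 (Ackr1) to 0.51 (Ccrl2) on the log2 scale, 7 positive and 3 negative (median 0.04). There 2 lay higher and 2 lower without overlap, where 16.7% and 20.5% of all genes did. Ackr1, a decoy receptor of red cells and venules, had -0.60 ± 0.31 in BAT (adjusted p = 0.486 from limma) and -0.39 ± 0.31 in iWAT (adjusted p = 0.975), and its BAT value was -0.11 without BAT H1.2AKO replicate 1. In iWAT Ccr7, which guides cells to lymph nodes, had 0.37 ± 0.19 (adjusted p = 0.897 from limma) and Ccrl2 0.51 ± 0.33 (adjusted p = 0.946). Ccr2 had log2 fold changes of 0.02 ± 0.21 in BAT (adjusted p = 0.985) and 0.00 ± 0.21 in iWAT (adjusted p = 0.998), both from limma with 2 libraries per group. Ccr1 had -0.41 ± 0.25 in BAT and 0.05 ± 0.25 in iWAT, and Ackr2 -0.12 ± 0.29 and -0.11 ± 0.29.

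Related ligands and upstream genes were described from lists. Of the CXC, XC and CX3C ligands, 10 were tested in BAT and all 10 had negative fold changes (median -0.23), 5 of them without overlap, and 0 passed, where 6266 of 13190 genes were negative and 18.9% lay lower without overlap. Without BAT H1.2AKO replicate 1, 2 of the 10 were positive (median -0.19), and Cxcl1 had -0.95. Cxcl1, a neutrophil chemokine, had 0.289 and 2.86 FPKM in BAT H1.2AKO, against 8.89 and 3.97 FPKM in WT (-1.99 ± 0.78, adjusted p = 0.377 from limma), and Cxcl10, an interferon-induced ligand, 1.86 and 1.66 FPKM, against 9.32 and 2.53 FPKM (-1.27 ± 0.53, adjusted p = 0.399). In iWAT 5 of 11 were positive (median -0.04). Other CC ligands, such as Ccl24 and Ccl25, had 4 of 4 negative in BAT (median -0.17) and 3 of 7 positive in iWAT (median -0.05). Of NF-kappaB and cytokine genes that act upstream of chemokines, 3 of 11 were positive in BAT (median -0.10) and 7 of 14 in iWAT (median -0.02). Among them Csf1, the growth factor of macrophages, had 3.77 and 4.86 FPKM in BAT H1.2AKO, against 10.0 and 9.42 FPKM in BAT WT, which is -1.09 ± 0.14 on the log2 scale (lower in 2 of 2 libraries, adjusted p = 0.0942, limma). In iWAT Csf1 had 12.8 and 13.8 FPKM in H1.2AKO, against 13.9 and 16.3 FPKM in WT (-0.18 ± 0.14, adjusted p = 0.975).

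Outside the lists, the genes whose levels ran most like the mean log2 level of the 10 members, each centred within its tissue over the 8 libraries, were Cryzl1, Arntl2, Pmp22, Lhfp and Rora, out of 12584 ranked, with Pearson's r from 0.976 (Rora) to 0.997 (Cryzl1). Their likeness is a description, since these points share libraries and the ranking took the highest of many genes. The members' own r with that mean ran from -0.56 (Ccl5) to 0.95 (Ccl7), and was 0.06 for Ccl8 and 0.10 for Ccl3, so the mean does not stand for each member. That mean was lowest in BAT H1.2AKO replicate 1, and so were all 5 genes among the BAT libraries. Rora, a nuclear receptor, had 0.717 and 1.04 FPKM in BAT H1.2AKO, against 1.10 and 1.27 FPKM in BAT WT, and Arntl2, a clock gene, 1.16 and 1.62 FPKM, against 1.68 and 1.82 FPKM.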

How the data were processed

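RNA of 8 pooled libraries, 2 per tissue and genotype, was sequenced and processed by a company. For each gene the authors deposited its FPKM in every library, its length and its position. Alignment with HISAT2 2.0.5 and the genome builds GRCm38.p6 and mm10 are named in the submitters' processing notes. Neither the read counter nor the annotation is given in the sources used here. Reads were recovered from FPKM and gene length, and within 0.01, 100% of the values above 0 were whole. The divisor behind FPKM was 0.873 to 0.955 times these reads in BAT and 1.23 to 1.33 times in iWAT. Relative to these reads, FPKM thus lies higher in BAT than in iWAT, and the differences between tissues depend on this scaling. Mitochondrial genes held 31.4% to 34.3% of the FPKM in BAT and 11.1% to 13.5% in iWAT. Whether replicates were separate litters, and whether tissues share mice, is not given, so the error covers the spread between these pools.

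With R 4.3.3 and limma 3.58.1, log2(FPKM + 0.5) was fitted with 1 mean per tissue and genotype over 8 libraries and a trended empirical Bayes variance (residual degrees of freedom 4, prior 2.57). A pseudocount understates the change of low genes. Genes with a mean of at least 0.5 FPKM in a tissue were tested, which all 10 members passed in both, and p-values were Benjamini-Hochberg adjusted per contrast (threshold 0.05). Libraries were called non-overlapping where all of one group lay above all of the other. The script was tested on simulated data. Poisson intervals are exact at 95%. Members and lists were chosen with earlier results of these data known. Named genes were the members, the receptors Ccr1, Ccr2, Ccr3 and Ackr2, the 4 genes of each list with the smallest unadjusted p in a contrast, and the 5 genes with the highest Pearson correlation with the members' mean. Hist1h1c was named as the deleted gene. One further receptor is not reported here.

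Alternatives were pseudocounts of 0.1 and 1, no filter, a minimum mean of 1 FPKM, a separate fit per tissue, a replicate block, median-ratio scaling, limma-voom on recovered reads and each library left out. Subtracting the macrophage change, counting overlap and describing lists without the 2 libraries low in muscle RNA, and crossing the iWAT numbers were added after seeing the data. Figures were drawn with matplotlib 3.10.9 under Python 3.11.15.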

Additional observations from a re-analysis of the deposited data

Results flagged for a closer look

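Ccl2 differed between tissues in its genotype difference. In BAT both H1.2AKO libraries (1.63 and 3.18 FPKM) lay below both WT libraries (10.1 and 9.52 FPKM), and in iWAT both H1.2AKO libraries (5.65 and 6.29 FPKM) lay above both WT libraries (3.64 and 3.31 FPKM). The log2 fold change in BAT minus that in iWAT was -2.58 ± 0.34. It was -2.19 without BAT H1.2AKO replicate 1 and -2.98 without BAT H1.2AKO replicate 2. Limma's interaction test over 14945 genes called 0, Ccl2 included, so the opposite directions are a description of these 8 pools.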

How the results depend on the processing

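The count of genes called by genotype in iWAT was 0 at all alternatives except no filter on low values (11) and leaving out a library (1 to 21, the highest without iWAT WT replicate 1). In BAT it was 0 except with a pseudocount of 0.1 (6) or 1 (2), limma-voom (31) and leaving out a library (0 to 20, the highest without BAT H1.2AKO replicate 2), where Ccl2 was called. The interaction count was 0 except with a pseudocount of 0.1 (3), no filter (5) and leaving out a library (0 to 2). The causes were not tested. The tissue count, 9883 genes (4596 higher and 5287 lower in BAT), lay between 7609 and 10822. With limma-voom, where the median of all genes was -0.54, against -0.04 in the main fit, the split was 2035 higher and 8787 lower. The replicate block gave 0 calls by genotype in either tissue, 7609 by tissue and 0 for the interaction. The correlations of deviations of same-numbered libraries ran from -0.161 to 0.329 and were over 0.1 in 3 of 6 pairs of groups, so the numbers were not taken as pairs. With the iWAT numbers crossed the counts were 0, 0, 8347 and 0. Of the members' fold changes under these alternatives, 577 stayed within the residual SD, 41 moved further and 0 called ones reversed. Without the library low in muscle RNA, the members without overlap numbered 5 higher and 4 lower in each tissue, where 38.1% of all genes were higher and 35.5% lower in BAT, and 35.3% higher and 36.8% lower in iWAT. There 1 library stands for a group, and the 4 lower members were those of the full data. Leaving out libraries put Ccl12 in BAT between -1.39 and 0.80, Ccl7 in iWAT between -0.39 and 0.59 and Ccl4 in BAT between -0.39 and 0.55. Depth limits Ccl3, Ccl4 and, in BAT, Ccl5, Ccl8 and Ccl12, which rest on 4 to 37 reads.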

Other observations

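Lists outside the comparisons above are given as values. Lymph node markers in iWAT H1.2AKO had 9 of 9 fold changes below 0 (median -0.43), 6 of them without overlap, where 20.5% of all genes lay lower. They were led by Glycam1, a ligand of the vessels that let lymphocytes into the node (-0.63 ± 0.13, adjusted p = 0.549 from limma, lower in 2 of 2 libraries). In BAT 3 were tested and 2 were positive (median 0.55). Eosinophil and mast cell markers had 1 of 5 positive in BAT (median -0.47) and 1 of 6 in iWAT (median -0.03). Among them the mast cell protease Cpa3 had -0.47 ± 0.15 in BAT (adjusted p = 0.311 from limma). Fibroblast and adipocyte progenitor markers had 1 of 8 positive in BAT (median -0.40) and 1 of 8 in iWAT (median -0.10). Without BAT H1.2AKO replicate 1, the BAT count was 2 of 8 (median -0.04). Adipocyte markers had 2 of 6 positive in BAT (median -0.20) and 1 of 6 in iWAT (median -0.25). The lipid droplet gene Cidec had -0.56 ± 0.17 in BAT and -0.59 ± 0.17 in iWAT (adjusted p = 0.289 and 0.636 from limma). Brown adipocyte markers had 2 of 5 positive in BAT (median -0.02) and 2 of 4 in iWAT (median 0.00). In iWAT Ucp1, the heat-producing uncoupling protein, had 3.41 and 2.33 FPKM in H1.2AKO, against 0.547 and 2.01 FPKM in WT (1.04 ± 0.38, adjusted p = 0.767 from limma). Without iWAT WT replicate 1 its log2 fold change was 0.41. Ppara ran the other way in iWAT (-0.49 ± 0.14, adjusted p = 0.628 from limma), lower without overlap. In BAT Ppara (-0.78 ± 0.14) and Dio2 (-1.11 ± 0.22) lay lower without overlap, where 18.9% of all genes did (adjusted p = 0.161 and 0.185 from limma). Muscle markers had 0 of 9 positive in BAT (median -2.88) and 8 of 9 in iWAT (median 1.75). The iWAT direction turned on iWAT WT replicate 1, and with that library left out 0 of 9 were positive (median -0.56). Leaving out the low-muscle library of BAT kept 0 of 9 positive there, with a median of -0.99. Limma called 0 genes of any of these lists by genotype.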
